A study of Mus musculus with 2 samples.

Results

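The RNA of 7 mouse genes of the CXC chemokine system was followed through the immune cells of osteosarcoma xenografts: the ligands Cxcl1, Cxcl2, Cxcl3, Cxcl5 and Cxcl12 and the receptors Cxcr2 and Cxcr4. They were taken by symbol from the 32285 genes of the deposited count tables. The rule itself uses no measured value of these cells, but the 7 genes were chosen with earlier results of these data known. Each gene was counted in unique molecular identifiers (UMIs, 1 per captured RNA molecule) over barcodes with at least 500 UMIs, more than 200 and fewer than 6000 genes, and less than 5% mitochondrial UMIs. Under control IgG, most UMIs of Cxcl2, Cxcl3 and Cxcr2 lay in neutrophil-like cells. In the anti-CD3L1 library these cells were scarce, Cxcl1 and Cxcl2 UMIs lay mainly in macrophage-like, monocyte-like and unassigned cells, and Cxcl3 was low in every class.

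CD45, found on the surface of blood-derived cells, was the handle by which beads took cells out of xenografts of 143B, a line of human osteosarcoma, in female nude mice that were 4 weeks old when the experiment began. One group was given control IgG, a human IgG isotype, at 10 mg/kg and the other an anti-CD3L1 antibody at 10 mg/kg. Each group gave 1 droplet library made from a set of 3 tumors whose cells were not told apart, so that treatment and library cannot be told apart and no test across samples was possible. Nude mice lack T cells, the counts cover mouse genes and so not the ligands made by the human tumor cells, and the sort removes most cells without CD45, such as fibroblasts and endothelium.

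The control IgG library held 8557 cells with a median of 5526 UMIs and the anti-CD3L1 library 11269 cells with a median of 8267 UMIs. A cell was classed by the list of 8 marker genes of which it held most (at least 3, and 2 more than of any other list), with none of the 7 genes on a list. The classes large enough to compare were neutrophil-like (5833 control IgG and 600 anti-CD3L1 cells), monocyte-like (971 and 2287), macrophage-like (400 and 3380) and NK-like cells (144 and 816). No class was given to 1149 and 3660 cells, doublets were not removed, and 26 barcodes occurred in both libraries. In these 4 classes no list of another class had a gene among the 10 genes of highest fold in either library. All 8 own markers were detected in each, but cells were gated on them, so this is no check of the gate. Cells exactly at a limit of the gate (3 markers or a lead of 2) were counted. They numbered 216 and 81 neutrophil-like and 327 and 869 monocyte-like cells (control IgG and anti-CD3L1). Macrophage-like cells at a limit numbered 97 and 766, and NK-like cells 14 and 156. Neutrophil-like cells had a median of 4532 UMIs under control IgG and 2249 under anti-CD3L1.

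Cxcl1, Cxcl2, Cxcl3 and Cxcl5 encode chemokines with an ELR motif, which bind the receptor Cxcr2 and draw neutrophils from blood into inflamed tissue. Neutrophils, monocytes, macrophages and stromal cells can all make them, and their genes are switched on quickly by the transcription factor NF-κB. Cxcl12 is made by stromal and endothelial cells and binds Cxcr4, which holds neutrophils in the bone marrow and rises on them as they age. A cell with Cxcr2 is therefore a possible receiver of the first group of signals and a cell with Cxcl1, Cxcl2 or Cxcl3 a possible source.

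In GENCODE M21 (GRCm38) all 7 genes were found by their Ensembl identifiers and are protein coding. The submitters' processing notes name the build GRCm39, so these positions describe the genes and not the counted reads. The 4 ELR ligands lie in 1 stretch of the plus strand, Cxcl5 (ENSMUSG00000029371) at chr5:90759360-90761624, Cxcl3 (ENSMUSG00000029379) at chr5:90786103-90789600, Cxcl1 (ENSMUSG00000029380) at chr5:90891241-90893115 and Cxcl2 (ENSMUSG00000058427) at chr5:90903871-90905938. Cxcl12 (ENSMUSG00000061353) is at chr6:117168535-117181367, Cxcr2 (ENSMUSG00000026180) at chr1:74153989-74161246 and Cxcr4 (ENSMUSG00000045382), on the minus strand, at chr1:128588199-128592293. Protein-coding transcripts of Cxcl2 and Cxcl3 in this annotation share a run of 110 identical bases. No other pair of the 7 genes shares a run of 50 bases. A read from inside that run cannot be told between Cxcl2 and Cxcl3, so that their counts are uncertain to that extent.

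The RefSeq promoter table (GRCm38.p6) held 6 of the 7 genes, and Cxcl5 was not among them. The 3 ligand promoters are shown because they share an 11-base run, GGGAATTTCCC, which holds a κB word of the kind read by NF-κB. It was found as the longest run common to the 3, so its presence in them is no finding. The 110 bases before the start site are printed 5′ to 3′ on the plus strand with the run in capitals, at chr5:90891135-90891244 for Cxcl1, chr5:90903789-90903898 for Cxcl2 and chr5:90785991-90786100 for Cxcl3.
Cxcl1: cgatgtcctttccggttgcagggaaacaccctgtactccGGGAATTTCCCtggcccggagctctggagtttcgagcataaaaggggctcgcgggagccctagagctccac
Cxcl2: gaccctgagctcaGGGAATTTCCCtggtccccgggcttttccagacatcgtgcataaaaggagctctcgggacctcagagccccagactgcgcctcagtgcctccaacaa
Cxcl3: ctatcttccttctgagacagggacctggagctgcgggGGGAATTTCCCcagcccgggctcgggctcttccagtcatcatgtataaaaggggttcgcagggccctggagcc
Searched on both strands over the 250 bases before each start, GGGAATTTCCC was present in 14 of 32851 promoters (0.0426%), those of Cxcl1, Cxcl2 and Cxcl3 among them, and not in those of Cxcl12, Cxcr2 and Cxcr4. It begins 71, 97 and 73 bases before the RefSeq start in Cxcl1, Cxcl2 and Cxcl3. These starts differ from the GENCODE M21 starts given above, and the bases shown for Cxcl2 run past its GENCODE start at 90903871. The distances therefore hold only for the RefSeq starts. The word TATAAA was in 12.4% of promoters and in those of Cxcl3 and Cxcr4. A match is a description of the sequence, and binding was not measured.

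The first question was which cells held the ligand RNA. Cxcl2, a main attractant made by mouse myeloid cells, had 1071772 UMIs in the cells of the control IgG library, of which 79.4% lay in neutrophil-like, 8.59% in monocyte-like, 2.63% in macrophage-like and 9.32% in unassigned cells. In the anti-CD3L1 library it had 543296 UMIs, of which 3.97% lay in neutrophil-like, 26.6% in monocyte-like, 37.5% in macrophage-like and 31.3% in unassigned cells. For Cxcl3, with 14783 and 1784 UMIs, the neutrophil-like share was likewise high under control IgG (64.8%) and low under anti-CD3L1 (2.75%). Unlike Cxcl2, its anti-CD3L1 UMIs lay more in monocyte-like (38.3%) than in macrophage-like cells (26.2%). Cxcl1 was different already in the control IgG library, where neutrophil-like, monocyte-like and unassigned cells held 27.9%, 29.3% and 30.9% of 32042 UMIs. Under anti-CD3L1 macrophage-like cells held 46.8% of its 70072 UMIs and neutrophil-like cells 0.688%. These shares move with the numbers of cells in each class, and neutrophil-like cells were 68.2% of the cells under control IgG and 5.32% under anti-CD3L1.

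**Figure D1:**
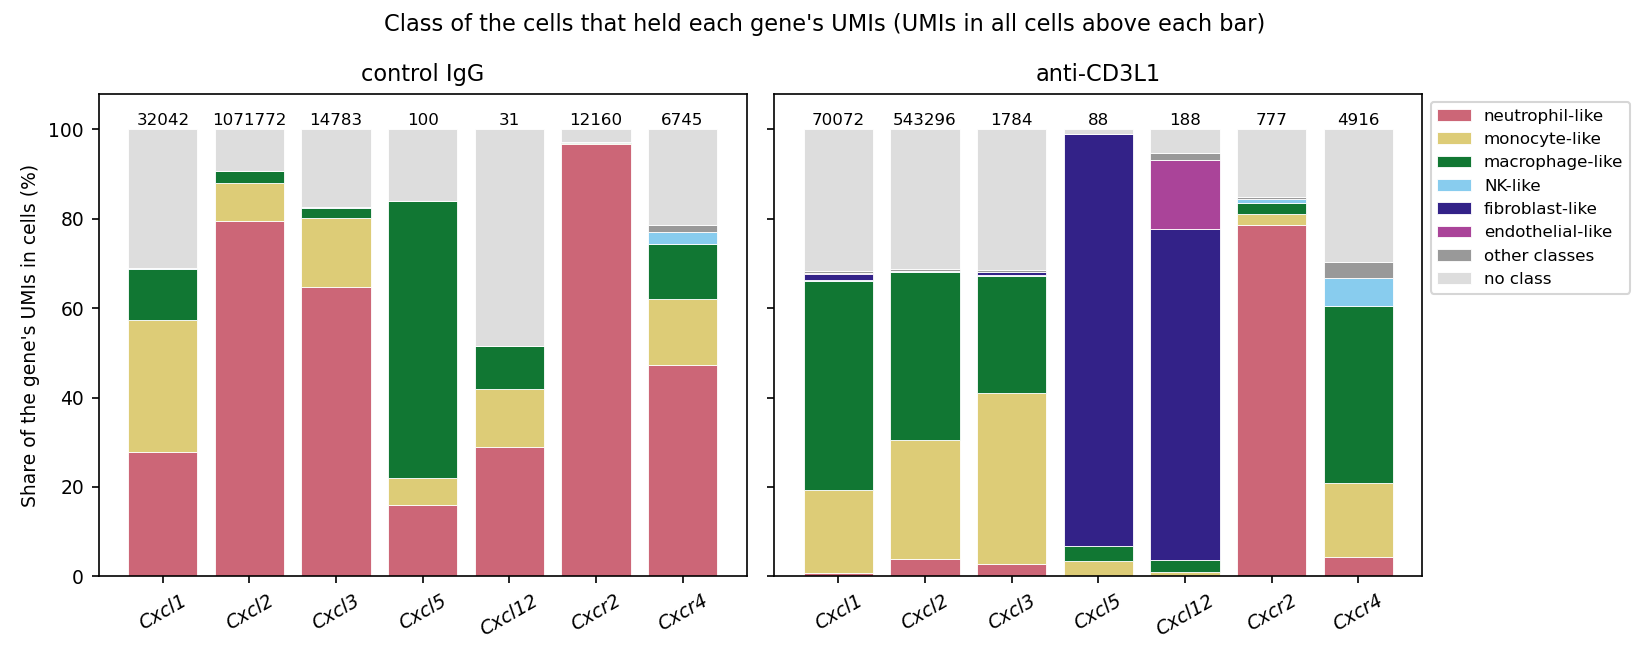
Share of each gene's UMIs, in percent of its UMIs in all cells (number above each bar), by the class of the cell, with control IgG on the left and anti-CD3L1 on the right. Neutrophil-like cells held 79.4% of Cxcl2 UMIs under control IgG and 3.97% under anti-CD3L1, while they held most Cxcr2 UMIs in both (96.8% and 78.6%).

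Levels are in CPM, meaning per 1000000 UMIs of the same class, with exact Poisson 95% intervals that cover counting error only. Cxcl2 stood at 25288 CPM (25234 to 25342) in neutrophil-like, 7480.4 (7432 to 7529) in monocyte-like, 5108 (5049 to 5168) in macrophage-like and 221 (199.99 to 244) in NK-like cells under control IgG. Under anti-CD3L1 the same classes stood at 10836 (10692 to 10982), 7684 (7644 to 7724), 6006 (5980 to 6032) and 154 CPM (146 to 163). Both libraries gave the same order of classes, with no overlap of neighbouring intervals. Over monocyte-like and macrophage-like cells together, Cxcl2 was 3.75-fold higher in neutrophil-like cells under control IgG (log2 ratio 1.91, exact binomial interval 1.90 to 1.92) and 1.64-fold higher under anti-CD3L1 (0.71, 0.69 to 0.73). In that contrast 11.7% of 11537 genes were at least 2-fold higher in neutrophil-like cells under control IgG and 10.9% of 12738 genes under anti-CD3L1.

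Cxcl2 RNA was spread over most neutrophil-like cells. The median neutrophil-like cell had 80 UMIs of Cxcl2 under control IgG and 20 under anti-CD3L1, or 169 and 77.2 per 10000 UMIs. The lower and upper deciles were 44.1 and 582 per 10000 UMIs under control IgG and 3.81 and 279 under anti-CD3L1, so that the distributions overlapped. With every cell thinned to 1000 UMIs, 98.2% of 5721 neutrophil-like control IgG cells (97.8 to 98.5%, exact binomial) and 86.1% of 567 anti-CD3L1 cells (82.9 to 88.8%) had a UMI of Cxcl2. Unthinned, 99.3% and 91.3% of cells had one. In NK-like cells, which are not known as its source, the thinned shares were 12.5% of 144 cells and 11.1% of 814, at median depths of 11373 and 8859 UMIs. Cells below 1000 UMIs, 112 neutrophil-like ones under control IgG and 33 under anti-CD3L1, had to be left out here.

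Cxcl1, which shares the receptor of Cxcl2, was lowest of the 3 myeloid classes in neutrophil-like cells of both libraries. Its level was 266 CPM (260.4 to 271) in neutrophil-like, 764 (749 to 779) in monocyte-like, 670 (648 to 692) in macrophage-like and 19.7 (13.7 to 27.4) in NK-like cells under control IgG. Under anti-CD3L1 these were 242 (221 to 265), 689.7 (678 to 702), 967 (956 to 977) and 26.2 CPM (22.7 to 29.98). In CPM monocyte-like cells led under control IgG and macrophage-like cells under anti-CD3L1, and the counting intervals of these neighbours did not overlap in either. These intervals leave out the spread between cells. Under control IgG 10% of the cells held 61.0% of Cxcl1 UMIs in monocyte-like and 64.7% in macrophage-like cells. The thinned shares of cells with Cxcl1 in these 2 classes overlapped there (25.2 to 31.0% and 20.3 to 29.0%). Relative to monocyte-like and macrophage-like cells together, Cxcl1 was 2.76-fold lower in neutrophil-like cells under control IgG (log2 ratio -1.47, -1.51 to -1.43) and 3.58-fold lower under anti-CD3L1 (-1.84, -1.97 to -1.71). The share of all genes at least 2-fold lower in that contrast was 54.2% under control IgG and 39.3% under anti-CD3L1, so a difference of this size was common.

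Cxcl1 was held by fewer cells than Cxcl2. Of neutrophil-like control IgG cells, 18.5% had a UMI of it and the top 10% of cells by Cxcl1 held 92.8% of its UMIs. Macrophage-like cells had a median of 1 UMI under control IgG and 3 under anti-CD3L1, and the top 10% held 64.7% and 47.2% of the UMIs. In thinned cells Cxcl1 was seen in 24.4% of control IgG (20.3 to 29.0%) and 40.4% of anti-CD3L1 macrophage-like cells (38.7 to 42.1%), and in 28.0% (25.2 to 31.0%) and 25.2% (23.5 to 27.1%) of monocyte-like cells. Unthinned, these shares were 54% and 70.3% of macrophage-like and 49.2% and 48.2% of monocyte-like cells. In NK-like cells the thinned share was 2.78% and 1.11%.

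Cxcl3, the third ELR ligand of the 3 found in all myeloid classes, was lower in each of them under anti-CD3L1. It stood at 285 CPM (279 to 290.3) in neutrophil-like, 186 (178 to 194) in monocyte-like and 59.6 (53.3 to 66.4) in macrophage-like cells under control IgG. Under anti-CD3L1 the levels were 24.6 (18.2 to 32.6), 36.3 (33.6 to 39.1) and 13.8 CPM (12.6 to 15.1), from 49, 683 and 468 UMIs. Every anti-CD3L1 level lay below every control IgG level of these 3 classes, and under anti-CD3L1 monocyte-like cells led, above neutrophil-like cells. The contrast between neutrophil-like and the other myeloid cells was 1.94-fold under control IgG (log2 ratio 0.95, 0.89 to 1.02) and could not be told from 0 at this depth under anti-CD3L1 (0.18, -0.27 to 0.59). In thinned cells Cxcl3 was seen in 11.8% of control IgG (10.9 to 12.6%) and 3.17% of anti-CD3L1 neutrophil-like cells (1.89 to 4.97%). The shares were 10.2% (8.36 to 12.3%) and 2.50% (1.90 to 3.23%) in monocyte-like cells. In macrophage-like cells they were 2.77% (1.39 to 4.90%) and 1.37% (1.01 to 1.83%), with overlapping intervals. In NK-like cells 10 and 3 UMIs were counted.

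**Figure D2:**
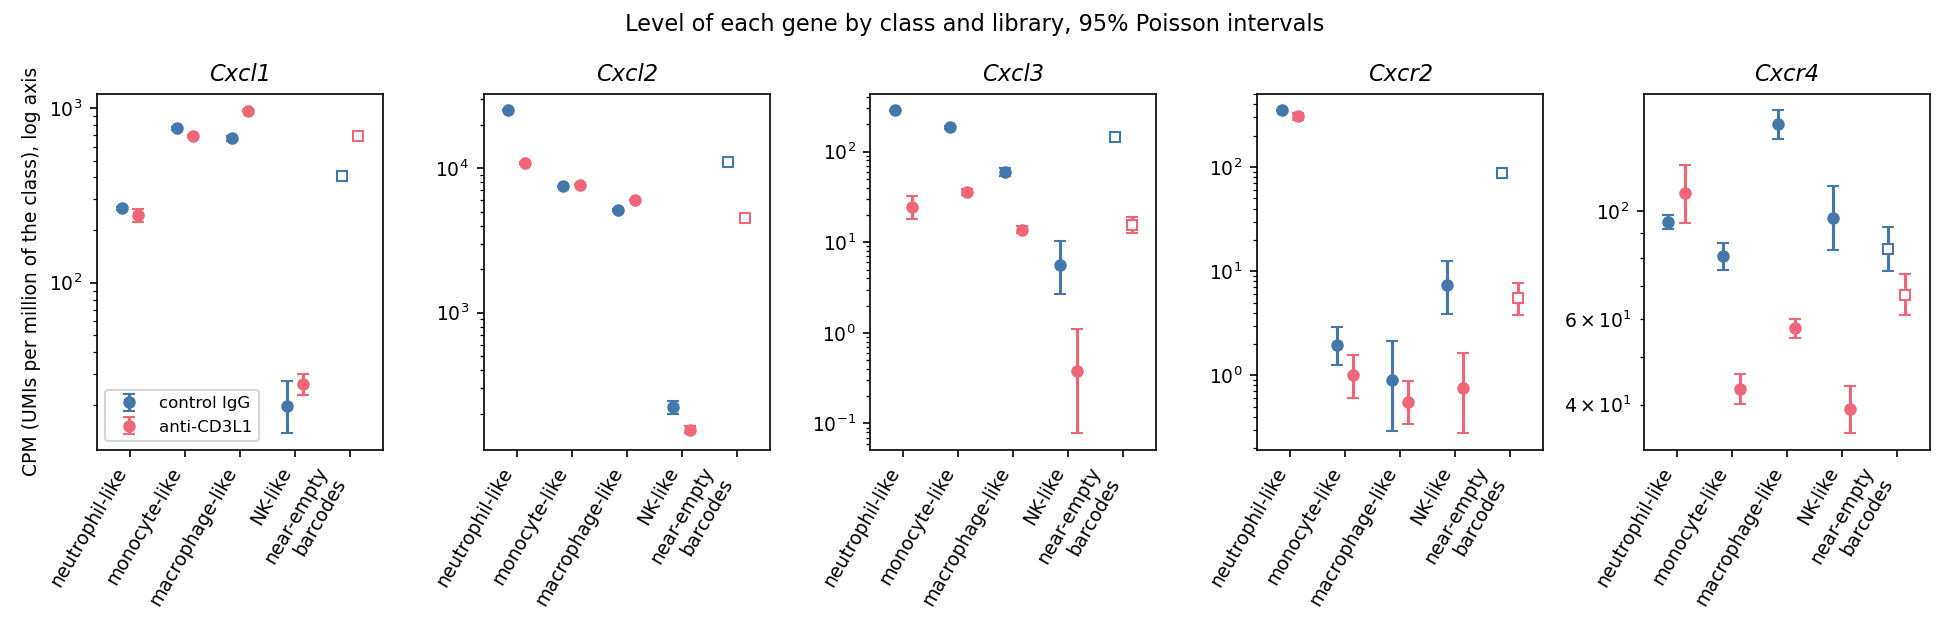
CPM (log axis) of 5 genes in 4 classes and in near-empty barcodes (open squares), control IgG in blue and anti-CD3L1 in red, with exact Poisson 95% intervals. Cxcl2 and Cxcl3 are highest in neutrophil-like control IgG cells (25288 and 285 CPM), Cxcl1 in macrophage-like anti-CD3L1 cells (967 CPM), and Cxcr2 is at most 7.32 CPM in the other 3 classes.

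Cxcl5 and Cxcl12 were at the edge of detection, and most of their RNA came from rare cells. Cxcl5, an ELR ligand made mainly by epithelial and stromal cells, had 100 UMIs in 40 cells of the control IgG library, 56 of them in 1 macrophage-like cell. In the anti-CD3L1 library it had 88 UMIs, 81 of them in 10 of the 29 fibroblast-like cells. Cxcl12 had 31 UMIs in the control IgG library with no more than 2 in a cell. In the anti-CD3L1 library it had 188, of which 139 lay in 24 of 29 fibroblast-like cells and 29 in 2 of 7 endothelial-like cells. Neutrophil-like anti-CD3L1 cells had 0 UMIs of Cxcl5 and of Cxcl12, which allows up to 1.51 CPM (3 counts). The control IgG library held 1 fibroblast-like and no endothelial-like cells. The same 29 fibroblast-like cells had 911 UMIs of Cxcl1, 240 of Cxcl2 and 11 of Cxcl3. These 36 stromal cells had passed a sort on CD45, and classes of under 50 cells are given here as UMI counts only.

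The receptors were then placed. Cxcr2, the receptor of the ELR ligands, lay mostly in neutrophil-like cells: 350 CPM (344 to 356) under control IgG and 307 (283 to 333) under anti-CD3L1, against 1.95 and 1.01 in monocyte-like and 0.906 and 0.56 in macrophage-like cells. Those last 4 levels rest on 24, 19, 5 and 19 UMIs, and 9 of the 24 lay in 1 cell. The ratio of neutrophil-like to the other myeloid cells was 215-fold under control IgG (log2 7.75, 7.23 to 8.33) and 427-fold under anti-CD3L1 (8.74, 8.26 to 9.25). The joint level of those other cells was only 1.63 and 0.72 CPM. Free RNA, as estimated further below, would alone give 0.728 CPM of Cxcr2 under control IgG and 0.115 under anti-CD3L1. No contrast is therefore read between the 215-fold and the 427-fold ratio. Unassigned cells had 25.6 and 3.85 CPM and NK-like cells 7.32 and 0.755. Cxcr2, which was no gate marker, was among the 10 genes of highest fold in neutrophil-like cells under control IgG but not under anti-CD3L1.

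Cxcr4, the receptor of Cxcl12, was found in all 4 classes compared between the libraries, and had 0 UMIs in the 29 fibroblast-like cells. Under control IgG macrophage-like cells led with 151 CPM (141 to 161), followed by NK-like (96.9, 82.9 to 112), neutrophil-like (94.9, 91.7 to 98.3) and monocyte-like cells (80.7, 75.7 to 85.9). The intervals of NK-like cells overlapped those of their neighbours below. Under anti-CD3L1 neutrophil-like cells led with 109 CPM (94.6 to 124), followed by macrophage-like (57.4, 54.8 to 59.96), monocyte-like (43.1, 40.1 to 46.1) and NK-like cells (39.1, 34.9 to 43.7). The last 2 intervals overlapped. B-like cells, compared in the anti-CD3L1 library only, had 171 CPM (125 to 229) from 45 UMIs, and conventional dendritic-like cells 12.5 CPM (7.95 to 18.8) from 23. The ratio of neutrophil-like to monocyte-like and macrophage-like cells was -0.11 on the log2 scale under control IgG (-0.19 to -0.03) and 1.06 under anti-CD3L1 (0.85 to 1.26).

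In neutrophil-like cells thinned to 1000 UMIs, Cxcr2 was seen in 26.3% (25.2 to 27.5%) of control IgG and 25.4% (21.9 to 29.2%) of anti-CD3L1 cells, and Cxcr4 in 9.25% (8.51 to 10.0%) and 12.5% (9.91 to 15.5%). Unthinned, the shares were 63.2% and 45.7% for Cxcr2 and 30.8% and 26.5% for Cxcr4, so that the order of the libraries for Cxcr4 turned with depth. Both were seen in 2.62% and 2.82% of the cells, near the product of the 2 shares (2.43% and 3.18%). Cxcr4 was seen in 9.97% of control IgG cells with Cxcr2 and 8.99% of those without. Control IgG cells with Cxcr4 and no Cxcr2 (379) had 20504 CPM of Cxcl2 and 221 of Cxcl3, and those with Cxcr2 and no Cxcr4 (1354) had 23241 and 243. The 3838 cells with neither receptor seen had 26731 CPM of Cxcl2, and the 150 with both had 20039 of Cxcl2 and 58.8 of Cxcl3 (49 UMIs). Under anti-CD3L1 the cells with Cxcr2 and no Cxcr4 (128) had 12950 CPM of Cxcl2 and those with Cxcr4 and no Cxcr2 (55) had 11603. The 368 anti-CD3L1 cells with neither had 10142 CPM of Cxcl2 and the 16 with both 13720 (580 UMIs). Cells with neither receptor seen were thus highest in Cxcl2 under control IgG and lowest under anti-CD3L1. The groups were set in thinned cells and the levels use all UMIs, so they do not mark cells that lack a receptor. Over all UMIs, cells with neither seen had 225 CPM of Cxcr2 under control IgG and 154 under anti-CD3L1. Their Cxcr4 stood at 62.3 and 61.4 CPM. Control IgG cells with Cxcr4 and no Cxcr2 had 261 CPM of Cxcr2. Of neutrophil-like cells with Cxcr2, 98.1% under control IgG and 86.1% under anti-CD3L1 also had a UMI of Cxcl2, as did 98.2% and 86.1% of those without Cxcr2.

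Neutrophil-like cells also differed along Retnlg, 1 of the gate markers. Control IgG cells with Retnlg at or below the median had a median of 4009 UMIs and 44922 CPM of S100a8, and those above it 5142 and 82339. Under anti-CD3L1 the lower part had 2182 UMIs and 10740 CPM of S100a8 and the upper part 2351.5 and 39562, so the parts differed in more than Retnlg. Control IgG cells with Retnlg at or below the median had 412 CPM of Cxcl1, 30440 of Cxcl2, 321 of Cxcl3 and 296 of Cxcr2, and those above it 151, 21242, 256 and 392. In the anti-CD3L1 library the lower part had 353 CPM of Cxcl1 and 256 of Cxcr2 and the upper part 120 and 364, while Cxcl2 stood at 11794 and 9780.2 and Cxcl3 at 21.1 and 28.5 (22 and 27 UMIs). Lower Retnlg went with more Cxcl1 and Cxcl2 and less Cxcr2 in both libraries, as a description of the cells. It went with more Cxcl3 under control IgG. Under anti-CD3L1 no direction of Cxcl3 could be read, since the intervals of the lower and upper parts overlapped (13.2 to 32.0 and 18.8 to 41.5 CPM). Macrophage-like cells were split by Folr2, a gene of resident macrophages. Those with a UMI of it had 678 CPM of Cxcl1 against 665 in those without under control IgG, and 934 against 996 under anti-CD3L1. Under control IgG they had 4517 against 5485 CPM of Cxcl2, 21.9 against 83.7 of Cxcl3 and 120 against 171 of Cxcr4. Under anti-CD3L1 these were 5922 and 6083, 14.9 and 12.8, and 54.8 and 59.7. Cells with Folr2 were deeper, with medians of 15053 against 13410 UMIs under control IgG and 10891 against 8928.5 under anti-CD3L1. Of 329 control IgG Cxcl3 UMIs, 91 lay in 1 cell.

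In monocyte-like and macrophage-like cells Cxcl1 and Cxcl2 were seen together more often than the product of their shares. Of thinned macrophage-like anti-CD3L1 cells 38.9% had both, where the product of the shares gives 33.5%, and Cxcl2 was seen in 96.2% of cells with Cxcl1 and 73.9% of cells without. Under control IgG both were seen in 22.2% of macrophage-like cells (product 17.3%), and Cxcl2 in 90.7% of cells with Cxcl1 and 64.3% without. Monocyte-like cells had both in 27.2% (product 24.0%) and 24.6% (product 20.4%). In neutrophil-like cells, nearly all of which had Cxcl2 under control IgG, both were seen in 9.32% (product 9.23%) there and in 10.6% (product 9.56%) under anti-CD3L1. Cxcl1 and Cxcl3 were seen together in 4.43% of control IgG monocyte-like cells, with a product of 2.86%.

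**Figure D3:**
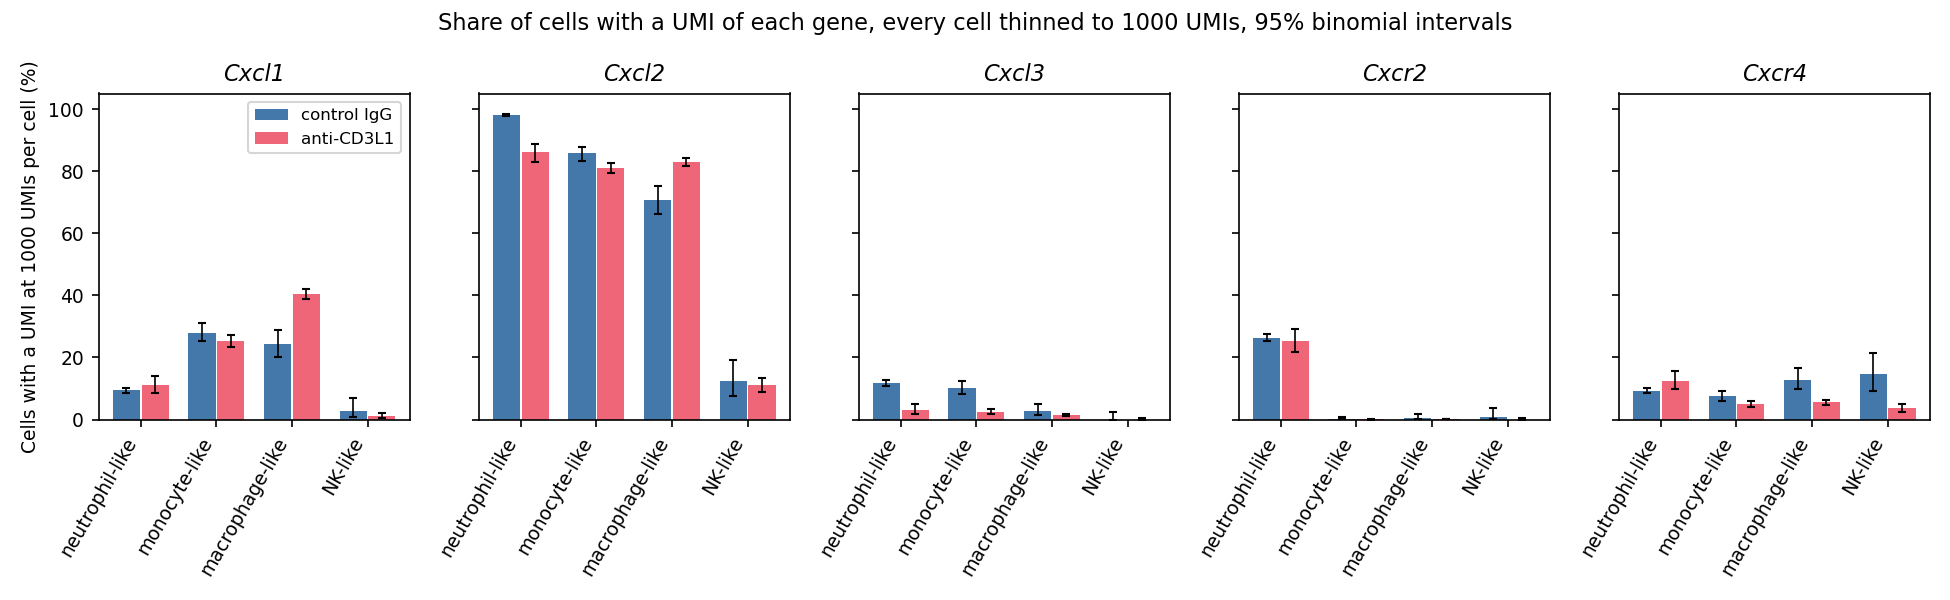
Share of cells with at least 1 UMI, in percent, after thinning every cell to 1000 UMIs, in 4 classes, control IgG in blue and anti-CD3L1 in red, with exact binomial 95% intervals. Cxcl2 was seen in 98.2% and 86.1% of neutrophil-like cells, Cxcr2 in 26.3% and 25.4% of them, and Cxcl1 in 24.4% and 40.4% of macrophage-like cells.

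The second question was how the libraries differed within a class. Over all cells Cxcr2 stood at 181 CPM under control IgG and 7.94 under anti-CD3L1, Cxcl3 at 219.7 and 18.2, Cxcl2 at 15926 and 5549, Cxcr4 at 100.2 and 50.2, and Cxcl1 at 476 and 716. No pair of intervals overlapped, but these cover counting error only, over 67296569 and 97909163 UMIs in cells. The share of all genes whose intervals also lay apart was not computed. Weighting the class levels of the anti-CD3L1 library by the share of UMIs that each class had under control IgG gave 155 CPM for Cxcr2, 23.8 for Cxcl3, 8442 for Cxcl2, 78.0 for Cxcr4 and 474 for Cxcl1. With this weighting the log2 ratio of Cxcr2 moved from -4.51 to -0.22 and that of Cxcl2 from -1.52 to -0.92, while that of Cxcl3 moved only from -3.59 to -3.21. In bulk sums of this kind, fewer cells of a class and less RNA per cell cannot be told apart, and the weighting holds only for the classes as gated here.

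In neutrophil-like cells 5 members had at least 50 UMIs over both libraries, and 2 of them, Cxcl2 and Cxcl3, were at least 2-fold lower under anti-CD3L1. None was at least 2-fold higher. Of all 9637 genes tested in this class, 3.83% were at least 2-fold lower and 34.3% at least 2-fold higher, with a median log2 ratio of 0.68, so ratios are also given less that median. Cxcl2 was 2.33-fold lower (log2 ratio -1.22, -1.24 to -1.20, or -1.90 less the median). Cxcl3 was 11.5-fold lower (-3.53, -3.96 to -3.13, or -4.21 less the median). Cxcr2 was at -0.19 (-0.31 to -0.07), Cxcl1 at -0.13 (-0.27 to -0.00) and Cxcr4 at 0.19 (-0.01 to 0.39), and less the median they were at -0.86, -0.81 and -0.48. Cxcr2 was at 0.04 with cells thinned to 1000 UMIs, Cxcl1 at 0.05 with a looser gate and Cxcr4 at -0.21 with the scaling that leaves out the 50 most abundant genes, so the directions of these 3 depended on the processing.

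The depth and the marker genes of neutrophil-like cells moved with these ratios. Their summed neutrophil markers stood at 15708 CPM under control IgG and 11203 under anti-CD3L1, monocyte markers at 778 and 1443 and macrophage markers at 250.5 and 1258, with all 8 markers of each list detected in both. S100a8 and S100a9, the calprotectin genes of neutrophils, stood at 65878 and 95449 CPM under control IgG and 24456 and 42238 under anti-CD3L1. Their part in the lower Cxcl2 and Cxcl3 was not tested. Leaving out the 5% of cells with the most UMIs in each class and library gave a log2 ratio of -1.08 for Cxcl2, and thinning every cell to 1000 UMIs also gave -1.08.

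In monocyte-like cells 4 members were tested and 1, Cxcl3, was at least 2-fold lower (5.13-fold, log2 ratio -2.36, -2.48 to -2.23), where 2.04% of 11010 genes were that much lower and 7.67% that much higher. The median log2 ratio of all genes was 0.22. Cxcr4 was 1.87-fold lower (-0.91, -1.04 to -0.77), Cxcl1 was at -0.15 (-0.19 to -0.11) and Cxcl2 at 0.04 (0.03 to 0.05). Cxcl2 turned to -0.02 when scaled without the 50 most abundant genes and also when cells were thinned to 1000 UMIs. Less the median both Cxcl1 and Cxcl2 were below 0 (-0.36 and -0.18), Cxcl3 was at -2.57 and Cxcr4 at -1.12.

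In macrophage-like cells 5 members were tested and 3 were at least 2-fold lower, where 3.22% of 12124 genes were that much lower and 5.34% that much higher and the median was 0.01. Cxcl3 was 4.32-fold lower (log2 ratio -2.11, -2.32 to -1.90) and Cxcr4 2.63-fold lower (-1.40, -1.51 to -1.28). The third was Cxcl5, with 62 UMIs against 3, and 56 of the 62 came from 1 control IgG cell. Without that cell Cxcl5 would have had too few UMIs to be tested. Its place among the 3 therefore rests on 1 cell, and only Cxcl3 and Cxcr4 are read against the share of all genes. Cxcl1 was 1.44-fold higher (0.53, 0.48 to 0.58) and Cxcl2 1.18-fold higher (0.23, 0.22 to 0.25), both short of 2-fold. Cxcl1 kept this direction under all 8 alternatives run, at 0.40 to 0.56, and so did Cxcl2, at 0.14 to 0.32.

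Neutrophil genes in the other classes were lower under anti-CD3L1 as well, and their part in the lower Cxcl3 there was not tested. S100a8 and S100a9 stood at 367 and 436 CPM in macrophage-like control IgG cells and 31.8 and 32.9 in anti-CD3L1 cells, and the 8 neutrophil gate markers summed to 480.1 and 239.5 CPM, all 8 detected in both. In monocyte-like cells S100a8 stood at 2120.1 and 89.7 CPM and the summed neutrophil markers at 847 and 494. The 8 macrophage markers, all detected there in both libraries, summed to 1306 CPM in monocyte-like cells under control IgG and 2993 under anti-CD3L1, and their part in the Cxcl3 and Cxcr4 ratios was not tested. Barcodes with fewer than 100 UMIs, which hold mostly free RNA, had 147 CPM of Cxcl3 under control IgG and 15.6 under anti-CD3L1, and 10925 and 4496 of Cxcl2. In control IgG NK-like cells no cell held more than 9 of 436 S100a8 UMIs and 12 of 609 S100a9 UMIs. Under anti-CD3L1 up to 40 of 98 S100a8 UMIs and 52 of 164 S100a9 UMIs lay in a single NK-like cell. If all these UMIs are taken as free RNA, it made up 0.828% of UMIs in control IgG and 2.09% in anti-CD3L1 cells. That gives 1.21 and 0.325 CPM of Cxcl3 and 90.4 and 93.8 CPM of Cxcl2. These amounts lie below the levels in myeloid cells, and for Cxcl2 they come to less than the 221 and 154 CPM counted in NK-like cells. With a gate of at least 4 markers and a lead of 3, Cxcl2 in control IgG NK-like cells was at 141 CPM. Subtracting them left the log2 ratios of Cxcl1, Cxcl3 and Cxcr4 in monocyte-like and macrophage-like cells inside their intervals and put Cxcl2 outside its own, at 0.06 and 0.25.

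**Figure D4:**
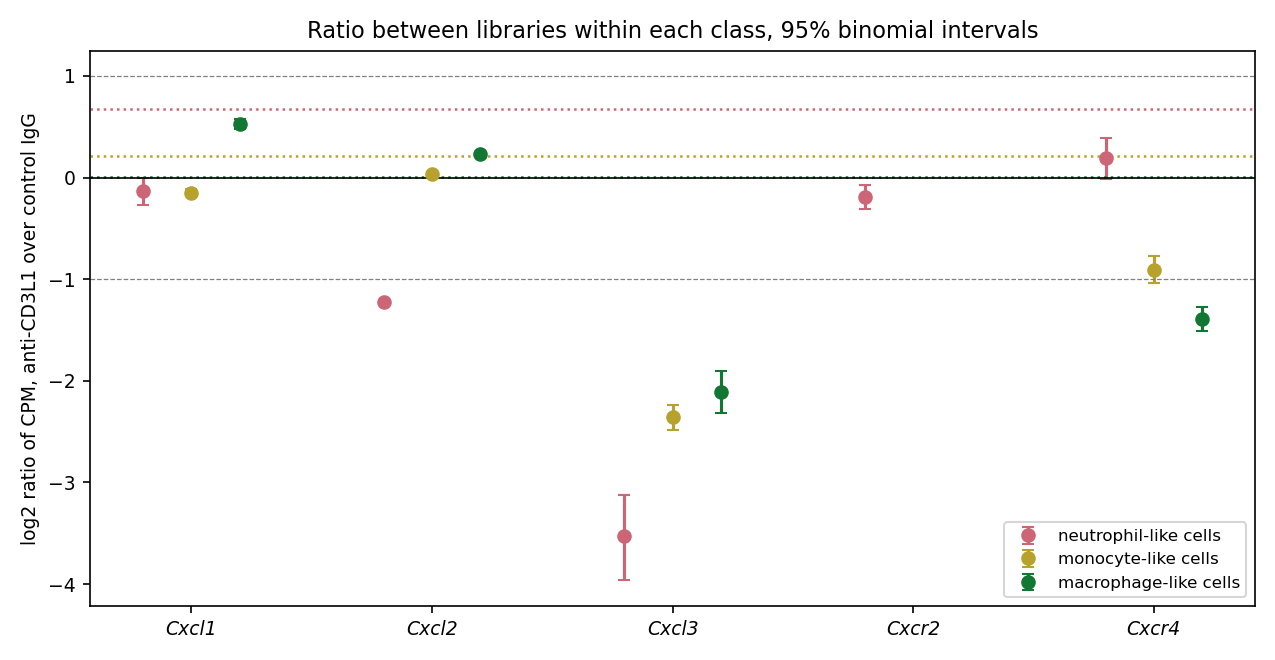
Log2 ratio of CPM, anti-CD3L1 over control IgG, within 3 classes, with exact binomial 95% intervals; dotted lines are the median of all genes tested in the class of the same color, dashed lines mark 2-fold. Cxcl3 is below -1 in all 3 classes (-3.53, -2.36 and -2.11). Of these classes, Cxcl2 is below -1 only in neutrophil-like cells (-1.22) and Cxcr4 only in macrophage-like cells (-1.40). In monocyte-like cells Cxcr4 is at -0.91, or -1.12 less the median.

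NK-like and unassigned cells were looked at for the same genes. In NK-like cells Cxcr4 was 2.48-fold lower under anti-CD3L1 (log2 ratio -1.31, -1.58 to -1.03), beside -0.91 in monocyte-like, -1.40 in macrophage-like and 0.19 in neutrophil-like cells. Less the median of all genes, monocyte-like, macrophage-like and neutrophil-like cells were at -1.12, -1.40 and -0.48. Differences between these classes were not tested. For NK-like and unassigned cells neither the share of genes past 2-fold nor the median ratio was computed, so their ratios have no background beside them. Unassigned cells, of which 396 control IgG and 1864 anti-CD3L1 cells had at least 3 monocyte and 3 macrophage markers and 650 and 606 at least 3 neutrophil and 3 monocyte or macrophage markers, gave -3.37 for Cxcl3 (-3.50 to -3.23), -1.16 for Cxcr4 (-1.26 to -1.05), -0.41 for Cxcl2 (-0.42 to -0.40) and -0.01 for Cxcl1 (-0.04 to 0.03).

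Related genes were counted by list. Of 17 other CXC chemokines and receptors, 7 were tested in neutrophil-like cells, with 3 at least 2-fold higher and 1 lower, where 34.3% and 3.83% of all genes in the class were. Cxcl9, an attractant of lymphocytes induced by interferon gamma, was highest at 2.53 (222 and 76 UMIs, with 83 and 53 in 1 cell each), and Cxcr1, the second receptor of ELR ligands, lowest at -1.37 (1666 and 38 UMIs). In monocyte-like cells 6 were tested, 2 higher and 0 lower (7.67% and 2.04% of all genes), from Cxcl9 at 2.61 to Cxcl10, which interferon also induces, at -0.26. In macrophage-like cells 10 were tested, 1 higher and 4 lower (5.34% and 3.22% of all genes). Pf4, among the 4 lower at -1.13, is a gate marker of this class, so its level there depends on the gate. Cxcr6, the receptor of Cxcl16, was highest at 3.47 (1 and 68 UMIs, interval 0.94 to 8.79), and Ppbp, a platelet chemokine of the ELR group, lowest at -8.52, with 170 of its 179 control IgG UMIs in 1 cell. The list medians were 0.84, 0.10 and -0.51, beside 0.68, 0.22 and 0.01 over all genes.

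Among 8 other receptors for neutrophil attractants and growth factor, all tested in each class, 2 were at least 2-fold lower and 0 higher in each of the 3 classes, with medians of -0.17, -0.43 and -0.28 beside 0.68, 0.22 and 0.01 over all genes. In neutrophil-like, monocyte-like and macrophage-like cells 3.83%, 2.04% and 3.22% of all genes were that much lower and 34.3%, 7.67% and 5.34% that much higher. Csf3r, on this list and at 0.16 in neutrophil-like cells, is a gate marker of that class, so its level there depends on the gate. Fpr1, which binds bacterial formyl peptides, was lowest in all: -2.45 in neutrophil-like cells (989 to 182 CPM), -3.53 in monocyte-like cells (79.1 to 6.85) and -3.72 in macrophage-like cells (55.4 to 4.21). The highest were Ptafr, the receptor of platelet-activating factor, at 0.20 in neutrophil-like cells, Tnfrsf1a, a receptor of tumor necrosis factor, at 0.16 in monocyte-like cells and Ltb4r1, the leukotriene B4 receptor, at 0.59 in macrophage-like cells.

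Of 12 genes of signalling below CXC receptors, 2 were at least 2-fold higher in neutrophil-like, 1 in monocyte-like and 0 in macrophage-like cells, and 0 were lower in any of them. Of all genes in these classes 34.3%, 7.67% and 5.34% were that much higher, so that 2 of 12 was a smaller share than the background in neutrophil-like cells. The medians were 0.44, 0.01 and -0.25 beside 0.68, 0.22 and 0.01 over all genes. Rgs2, which dampens G protein signals, was highest in each class, at 1.61, 1.68 and 0.39, and the lowest were the GTPase gene Rac2 at -0.43, the PI3-kinase subunit gene Pik3r5 at -0.62 and Rgs18 at -0.96 (18 and 57 UMIs).

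Of 10 inducers and regulators of the ligands, 8 were tested in neutrophil-like and 9 in each of the other classes, with 0, 1 and 1 at least 2-fold higher and 2, 1 and 1 lower. Of all genes 34.3%, 7.67% and 5.34% were higher and 3.83%, 2.04% and 3.22% lower by that much. The medians were -0.63, -0.40 and -0.04 beside 0.68, 0.22 and 0.01 over all genes. Csf3, the growth factor of neutrophils, was lowest in all 3 classes: 138 to 6.54 CPM in neutrophil-like (-4.40, from 4638 and 13 UMIs), 182 to 38.4 in monocyte-like (-2.24) and 28.6 to 14.0 in macrophage-like cells (-1.03). Tnf, which induces the ELR ligands, was highest in neutrophil-like and monocyte-like cells at 0.59 and 1.29, and Il6 in macrophage-like cells at 1.03 (15 and 188 UMIs, interval 0.27 to 1.89).

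**Figure D5:**
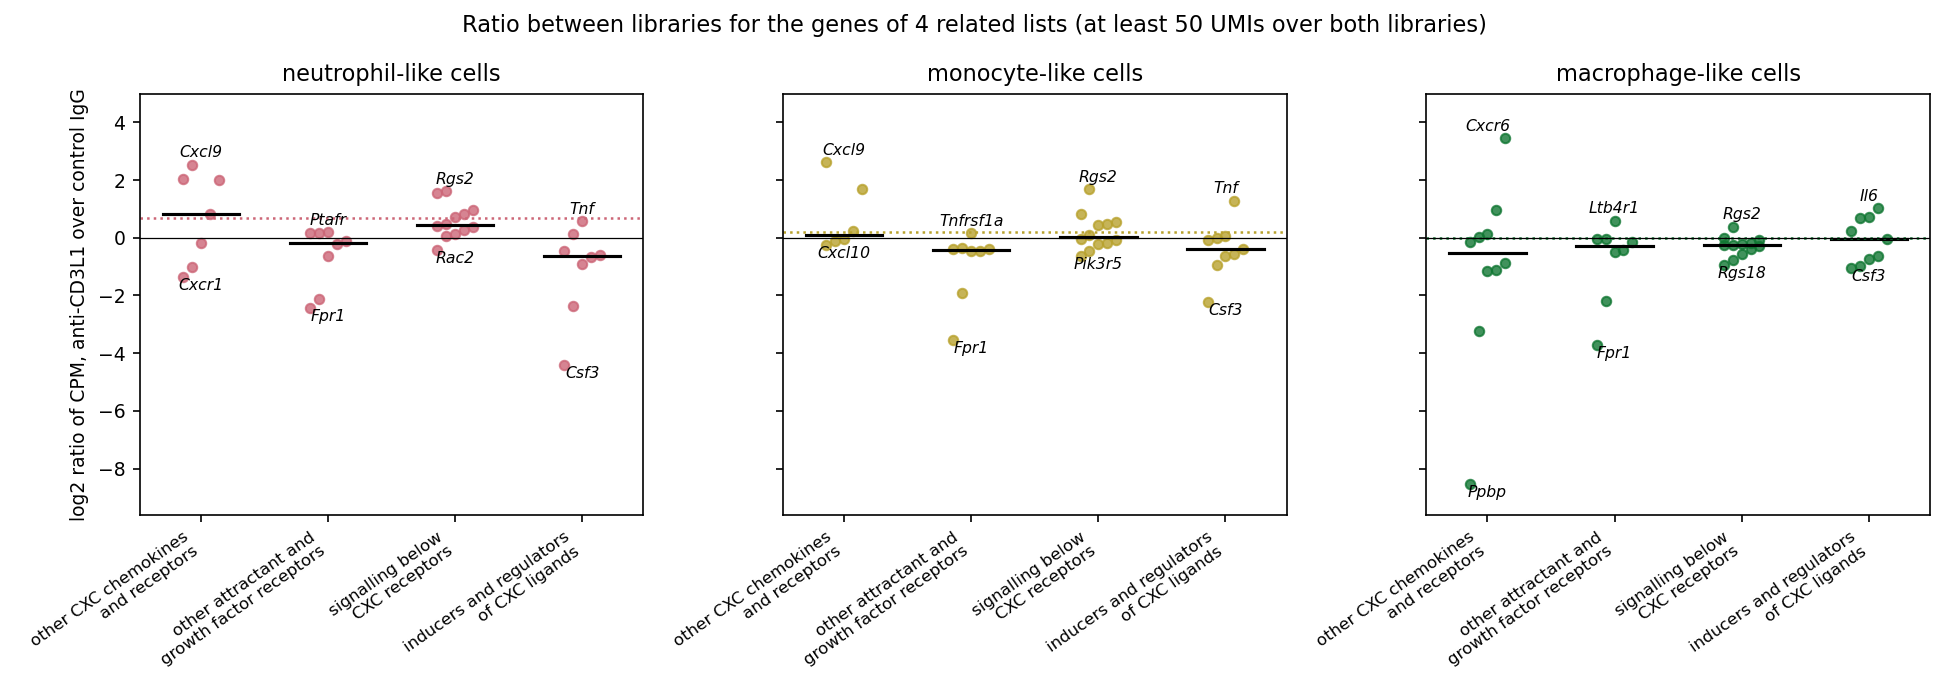
Log2 ratio of CPM, anti-CD3L1 over control IgG, for genes of 4 related lists with at least 50 UMIs over both libraries in 3 classes; each point is a gene, black bars are list medians and dotted lines the median of all genes tested. The highest and lowest gene of each list are named, with Csf3 (-4.40, -2.24 and -1.03) and Fpr1 (-2.45, -3.53 and -3.72) lowest in their lists in each class.

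The genes with the pattern most like each member were taken over 12 units, each a class of at least 50 cells in 1 library, among 5768 genes. Units of 1 library share its depth and free RNA, so the Pearson correlations of log2(CPM + 1) are descriptions. The 3 closest to Cxcl2 were Il1rn (0.97), the gene of the interleukin-1 receptor antagonist, Sgms2 (0.97) and Sirpb1a (0.97). Those closest to Cxcl1 were Il10 (0.96), Msr1 (0.95), a scavenger receptor of macrophages, and Gab1 (0.94), and those closest to Cxcl3 were Gpr84 (0.96), Cebpb (0.95), a transcription factor of myeloid cells, and Soat1 (0.93). Cxcr2 went with Ly6g (0.97), the surface marker of mouse neutrophils, Chil1 (0.97) and Stfa3 (0.97), and Cxcr4 less closely with Arhgap4 (0.83), Ptbp3 (0.79) and Tgif1 (0.73). The pattern of Cxcl5 rested on 1 cell, and its closest genes were Cxcl13 (0.83), Fcrls (0.75) and Marf1 (0.73). With Spearman's measure 1 of the 3 genes was shared for Cxcl3 and for Cxcr2 and 0 for the other 4.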

How the data were processed

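For every barcode and gene the authors deposited counts of UMIs, made with Cell Ranger 7.1.0 and named as GRCm39 in the submitters' processing notes, which also name Seurat 5.1.0. Tumors were kept in storage fluid, broken up and sorted with CD45 beads before droplets were made. The authors also deposited a macrophage table of their own comparison (p-values, log2 fold changes and shares of cells), which was not used, and 0 columns of other samples were found. The 7 genes and the lists were chosen with earlier results of these data known.

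A cell joined the class with the most of its 8 markers detected, at least 3 and at least 2 more than in any of the other 11 lists. Of 32285 gene identifiers, 32235 were found in GENCODE M21. The 1084690 and 1548857 barcodes held 74850604 and 108246719 UMIs. UMIs were summed over a class and divided by all its UMIs. Intervals are at 95%, exact Poisson for CPM and exact binomial for shares and ratios. They cover counting error only, since each group was 1 library, and a count of 0 was given the limit of 3 counts. Genes with at least 50 UMIs over both libraries were tested for a 2-fold difference. The genes named besides the 7 are the highest and lowest of each list in 3 classes, the 3 genes most like each member with at least 50 UMIs in a unit, and S100a8 and S100a9. Retnlg and Folr2, used to split classes, stand outside this rule and were chosen after the data were seen. Pf4 and Csf3r also stand outside it and are named because they are both list genes and gate markers. Alternatives changed the lowest UMI total, the mitochondrial limit, the gate, the scaling, the thinning depth, the cells of most UMIs and free RNA. The ratio and interval step was tested on simulated data. Python 3.11.15, numpy 2.4.6, scipy 1.17.1, pandas 2.3.3 and matplotlib 3.10.9 were used.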

Additional observations from a re-analysis of the deposited data

Results flagged for a closer look

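The ratio of anti-CD3L1 over control IgG went opposite ways in different classes for 2 of the 7 genes, with each counting interval off 0. The difference between the classes was not tested, since each group was 1 library. For Cxcl2 the log2 ratio was -1.22 in neutrophil-like, 0.04 in monocyte-like and 0.23 in macrophage-like cells, which puts monocyte-like cells 1.26 and macrophage-like cells 1.46 above neutrophil-like cells. Less the median of all genes in each class the 3 values were -1.90, -0.18 and 0.23, so that monocyte-like cells then lay on the side of neutrophil-like cells. For Cxcl1 the log2 ratio was -0.13 in neutrophil-like, -0.15 in monocyte-like and 0.53 in macrophage-like cells, which puts macrophage-like cells 0.66 above neutrophil-like and 0.68 above monocyte-like cells. The neutrophil-like value of Cxcl1 turned to 0.05 with a gate of at least 2 markers and a lead of 1.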

How the results depend on the processing

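All alternatives were planned, and each kept the other choices as they were. Of the log2 ratios recomputed, 74 stayed inside the counting interval, 34 left it and 4 changed sign where the interval was off 0. The 34 include Cxcr4 in neutrophil-like cells, whose interval held 0 and which turned from 0.19 to -0.21. In neutrophil-like cells the stricter gate (at least 4 markers and a lead of 3) gave -0.37 for Cxcl1, -1.12 for Cxcl2 and -0.0066 for Cxcr2, and the looser gate (at least 2 and a lead of 1) 0.054, -1.29 and -0.45. Scaling without the 50 most abundant genes gave -0.54 for Cxcl1, -1.63 for Cxcl2, -0.59 for Cxcr2 and -0.21 for Cxcr4, and thinning each cell to 1000 UMIs gave -0.42, -1.08, 0.038 and 0.40. Leaving out the 5% of cells with the most UMIs gave -1.08 for Cxcl2 and 0.40 for Cxcr4. Cxcl3 stayed inside its interval there under all 8 alternatives. In monocyte-like cells Cxcl2 (0.04) turned to -0.021 with the scaling without the 50 genes and -0.015 with thinning. In macrophage-like cells the stricter gate gave 0.14 for Cxcl2 and -1.89 for Cxcl3, the looser gate 0.40 for Cxcl1 and 0.32 for Cxcl2, and thinning 0.44 for Cxcl1, 0.29 for Cxcl2, -2.33 for Cxcl3 and -1.23 for Cxcr4. Cxcl2 there was at 0.26 without the 5% of cells and at 0.25 with free RNA subtracted. The cause of these shifts was not tested.

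With the looser gate 2 members were at least 2-fold lower in monocyte-like cells, Cxcl3 and Cxcr2 (56 and 36 UMIs), and 4 in macrophage-like cells, Cxcr2 (31 and 30 UMIs) beside Cxcl3, Cxcl5 and Cxcr4. Cxcr2 is below the minimum of 50 UMIs in both classes as gated in the report. The call of Cxcl5 in macrophage-like cells as gated in the report rests on 1 cell. The share of all genes past 2-fold was not computed with the looser gate, so these counts have no background beside them. The shares that follow use the gate of the report. A minimum of 10 UMIs put 8.23% of genes at least 2-fold lower in neutrophil-like cells, 13.4% higher and 3.37% lower in monocyte-like cells, and 10.1% higher and 6.41% lower in macrophage-like cells. A minimum of 200 UMIs gave 4.41% higher in monocyte-like cells and 2.96% higher and 1.74% lower in macrophage-like cells. Of the CPM levels recomputed, 84 stayed inside their intervals and 40 left them, 1 of them by over 1.5-fold (Cxcl2 in control IgG NK-like cells, 141 CPM with the stricter gate). Of the shares of cells with a UMI, recomputed at other thinning depths and without thinning, 74 left their intervals and 4 stayed, so these shares hold only for the depth named. No replicate could be left out and no paired analysis was possible because each group has 1 library.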
